A study of Rattus norvegicus with 24 samples.

Results

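The thick ascending limb of the loop of Henle was described through 6 genes that mark its cells: Umod, Slc12a1, Kcnj1, Bsnd, Casr and Ptger3. They were taken as the probes whose gene symbol in the array's annotation is one of these names. The annotation paired 1 probe each with Umod, Kcnj1, Bsnd, Casr and Ptger3 and none with Slc12a1, so 5 of 6 genes were measured, out of 13337 gene symbols and 22523 probes on the array. All 5 probes were above background (detection p under 0.05) on 24 of 24 arrays and were among the 14390 probes kept. The naming rule uses no measured value, but the members were chosen with earlier results of these data known.

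Cells of the thick ascending limb take up sodium, potassium and chloride from the tubule through the cotransporter NKCC2, encoded by Slc12a1. Potassium returns to the lumen through the channel ROMK, encoded by Kcnj1, and chloride leaves across the basolateral membrane through channels that need the subunit barttin, encoded by Bsnd. The resulting lumen-positive voltage drives calcium and magnesium between the cells, and the segment dilutes the urine and builds the salt gradient of the medulla. Its receptors include the calcium-sensing receptor (Casr) and the prostaglandin E receptor EP3 (Ptger3), both of which restrain salt transport, and its cells secrete uromodulin (Umod), the most abundant protein of normal urine. The limb runs through outer medulla and cortex. Its medullary part works at low oxygen tension beside the proximal straight tubule.

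Total RNA came from kidney medulla and cortex of Wistar rats aged 3 months. The injured groups had 20 min of ischemia of both kidneys and then 6, 24 or 120 h of reperfusion, and the sham groups had sham treatment. Each of the 8 groups (medulla at 6, 24 and 120 h and sham medulla, cortex at 6, 24 and 120 h and sham cortex) had 3 arrays. The labels do not say whether the 3 arrays of a group came from separate animals, so p-values measure the spread between arrays, which may be technical. Whole tissue was measured, so fewer thick limb cells and less RNA per cell cannot be told apart.

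The medians of raw intensity per array ranged from 67.3 to 98.1, and 11173 to 12710 probes per array were above background. Sham medulla replicate 1 stood apart from its group. Its mean absolute log2 difference was 0.397 from the other sham medulla arrays and 0.278 from the sham cortex arrays. Its summed proximal tubule markers (17.42, log2 of the sum) lay above the other sham medulla arrays (16.66 and 17.07) and near the sham cortex arrays (17.42 to 17.58). Where leaving it out moved a result that uses sham medulla, the value without it is given beside that result. Tubular injury markers rose in injured tissue: in medulla 10, 9 and 10 of 13 rose at 6, 24 and 120 h, and in cortex 7, 9 and 6 of 13 rose. Of all probes 33.8%, 32.7% and 14.6% were called in medulla, in either direction, and 19.6%, 26.2% and 5.65% in cortex.

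The windows around the transcription starts of 4 of the genes are shown: Umod, Kcnj1 and Bsnd, which shared their lowest cortex array with Casr (window not shown), and Ptger3, which was high on that array. Each runs from 250 bases before to 50 bases after the start, 5′ to 3′ on the gene's strand, from RefSeq on build GRCr8, in a set where all 6 genes matched with 8 windows. The capitals mark the TATA box letters TATAAA in Umod and Kcnj1 and the GC box letters GGGCGG, on either strand, in Ptger3. Umod lies at chr1:183260967-183261266 on the minus strand, Kcnj1 (the first of its 2 listed starts) at chr8:39037742-39038041 on the plus strand, Bsnd at chr5:126489340-126489639 on the minus strand and Ptger3 at chr2:249264832-249265131 on the plus strand.
Umod: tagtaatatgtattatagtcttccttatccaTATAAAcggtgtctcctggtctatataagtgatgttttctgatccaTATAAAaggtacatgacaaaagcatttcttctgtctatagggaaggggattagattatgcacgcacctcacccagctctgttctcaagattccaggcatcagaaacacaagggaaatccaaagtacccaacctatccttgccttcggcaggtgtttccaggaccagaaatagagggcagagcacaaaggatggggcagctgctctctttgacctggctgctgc
Kcnj1: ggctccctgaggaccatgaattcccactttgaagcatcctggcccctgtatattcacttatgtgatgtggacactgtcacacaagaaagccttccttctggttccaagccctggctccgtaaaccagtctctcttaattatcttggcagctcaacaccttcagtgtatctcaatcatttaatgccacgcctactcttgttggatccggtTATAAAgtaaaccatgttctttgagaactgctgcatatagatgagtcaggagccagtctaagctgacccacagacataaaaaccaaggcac
Bsnd: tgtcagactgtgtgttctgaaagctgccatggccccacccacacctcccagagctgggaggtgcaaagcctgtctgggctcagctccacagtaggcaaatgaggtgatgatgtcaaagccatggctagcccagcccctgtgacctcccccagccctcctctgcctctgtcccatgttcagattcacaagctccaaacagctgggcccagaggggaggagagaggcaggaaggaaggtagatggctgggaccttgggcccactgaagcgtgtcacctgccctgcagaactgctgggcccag
Ptger3: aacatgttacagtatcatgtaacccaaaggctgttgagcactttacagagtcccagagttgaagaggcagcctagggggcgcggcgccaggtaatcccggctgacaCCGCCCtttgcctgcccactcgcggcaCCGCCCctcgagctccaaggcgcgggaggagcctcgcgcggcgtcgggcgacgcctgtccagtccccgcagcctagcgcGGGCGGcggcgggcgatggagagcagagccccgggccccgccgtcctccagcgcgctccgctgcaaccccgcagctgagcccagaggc

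The motifs searched on both strands were the TATA box (TATAAA), the CCAAT box (CCAAT), an HNF1 site's first part (GTTAAT), an estrogen-related receptor site (AAGGTCA) and the GC box (GGGCGG), and no matches of different motifs overlapped in these windows. Umod held TATAAA at 219 and 173 bases before the start, and Kcnj1 held it at 41 bases before its first start. TATAAA was present in 14.2% of all 33469 RefSeq rat windows of this length. Ptger3 held GGGCGG at 38, 117 and 144 bases before the start, a motif present in 33.1% of all windows. None of the 5 motifs was found in the Bsnd window. The windows differed in base composition, with 44.3% G and C in Umod, 46.0% in Kcnj1, 60.3% in Bsnd and 69.7% in Ptger3, against a median of 51.7% over all windows. The Casr window, not shown, had 64.7% and none of the 5 motifs. A relation of base composition to the shared lowest array was not tested. A match of letters is a description of the window and was not tied to binding.

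Values below are normalized log2 intensities, on which 1 unit is a doubling, and replicates 1, 2 and 3 are given in that order. Levels of different genes come from different probes and are not set against each other. A difference was called when its p-value from a linear model of all arrays, adjusted over 14390 probes, was under 0.05. Errors after ± are standard errors for differences and SDs (n = 3) for group means.

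Kcnj1, the luminal potassium channel, was the 1 member called against sham, in cortex at 24 h as given further on. In medulla it measured 11.24, 12.84 and 12.44 in sham tissue, 12.01, 12.12 and 11.53 at 6 h, 12.25, 12.28 and 11.61 at 24 h and 11.94, 11.85 and 12.03 at 120 h. In cortex it measured 12.14, 10.85 and 10.99 in sham tissue, 10.53, 10.52 and 11.54 at 6 h, 10.16, 10.87 and 9.47 at 24 h and 10.75, 10.79 and 10.81 at 120 h. Sham medulla replicate 1 and sham cortex replicate 1 lay away from their groups in opposite directions, and cortex at 24 h held the lowest array of all. The group means ran from 12.17 ± 0.83 in sham medulla to 10.16 ± 0.70 in cortex at 24 h, with the 4 medulla groups above the 4 cortex groups. No neighbours in that order were further apart than the larger of their SDs.

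Bsnd, the chloride channel subunit, had a similar regional order with less separation in sham tissue. In medulla it measured 8.64, 10.11 and 10.08 in sham tissue, 9.98, 10.24 and 10.22 at 6 h, 10.05, 10.86 and 9.65 at 24 h and 9.83, 10.15 and 10.51 at 120 h. In cortex it measured 9.57, 9.33 and 9.09 in sham tissue, 8.84, 9.04 and 9.14 at 6 h, 9.03, 9.69 and 7.89 at 24 h and 9.05, 9.18 and 9.26 at 120 h. Sham medulla replicate 1 was the lowest medulla array, below every sham cortex array, and cortex replicate 3 at 24 h was the lowest array. The means of the medulla groups (10.18 ± 0.62 at 24 h, 10.16 ± 0.34 at 120 h, 10.15 ± 0.14 at 6 h and 9.61 ± 0.84 in sham tissue) all lay above the highest cortex mean, 9.33 ± 0.24 in sham cortex. Only cortex at 120 h and cortex at 6 h (9.16 and 9.01) differed by more than the larger SD of the pair among neighbours in the order.

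Umod, the secreted protein, was bright everywhere. Its mean ranked 76 among the 14390 kept probes, and 7 arrays came within 0.5 of the ceiling that normalization sets (14.78), where differences are compressed. In medulla it measured 14.32, 14.45 and 14.52 in sham tissue, 13.96, 14.50 and 13.97 at 6 h, 14.24, 13.90 and 13.38 at 24 h and 14.36, 14.27 and 14.46 at 120 h. In cortex it measured 14.34, 13.46 and 13.11 in sham tissue, 13.59, 13.62 and 14.21 at 6 h, 13.22, 14.24 and 10.85 at 24 h and 13.79, 13.62 and 13.93 at 120 h. The 24 h groups were lowest in both regions (13.84 ± 0.43 in medulla and 12.77 ± 1.74 in cortex), and cortex replicate 3 at 24 h lay apart from its group. In raw intensity that array gave 1934.9 for Umod, against 9812.5 and 17999.3 on the other two.

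Casr, the calcium-sensing receptor, was the dimmest of the 5, with raw intensities of 93.4 to 203.3 and a highest detection p of 0.0121. In medulla it measured 6.84, 6.93 and 6.72 in sham tissue, 6.09, 6.95 and 5.27 at 6 h, 6.20, 6.64 and 6.04 at 24 h and 5.84, 5.68 and 5.67 at 120 h. In cortex it measured 6.39, 6.73 and 5.98 in sham tissue, 6.45, 6.14 and 5.88 at 6 h, 6.47, 7.32 and 5.59 at 24 h and 6.54, 6.07 and 6.26 at 120 h. The mean of Casr was highest in sham medulla (6.83 ± 0.11) and lowest in medulla at 120 h (5.73 ± 0.10), and the cortex groups lay between 6.16 and 6.46. The medulla arrays at 120 h did not overlap the sham medulla arrays.

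Ptger3, the prostaglandin E receptor, had its highest means in injured medulla. In medulla it measured 8.28, 10.17 and 9.25 in sham tissue, 10.20, 8.81 and 9.90 at 6 h, 10.09, 9.89 and 10.74 at 24 h and 10.09, 10.53 and 9.98 at 120 h. In cortex it measured 8.84, 8.43 and 7.95 in sham tissue, 7.94, 7.72 and 9.38 at 6 h, 8.07, 8.14 and 9.52 at 24 h and 8.20, 9.50 and 9.37 at 120 h. The cortex array at 24 h that was lowest for Umod, Kcnj1, Bsnd and Casr was the highest of its group for Ptger3. Group means ran from 10.24 ± 0.45 in medulla at 24 h to 8.35 ± 0.90 in cortex at 6 h. Neighbouring groups in the order of means differed by no more than the larger of their SDs for Umod, Casr and Ptger3 as well.

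**Figure D1:**
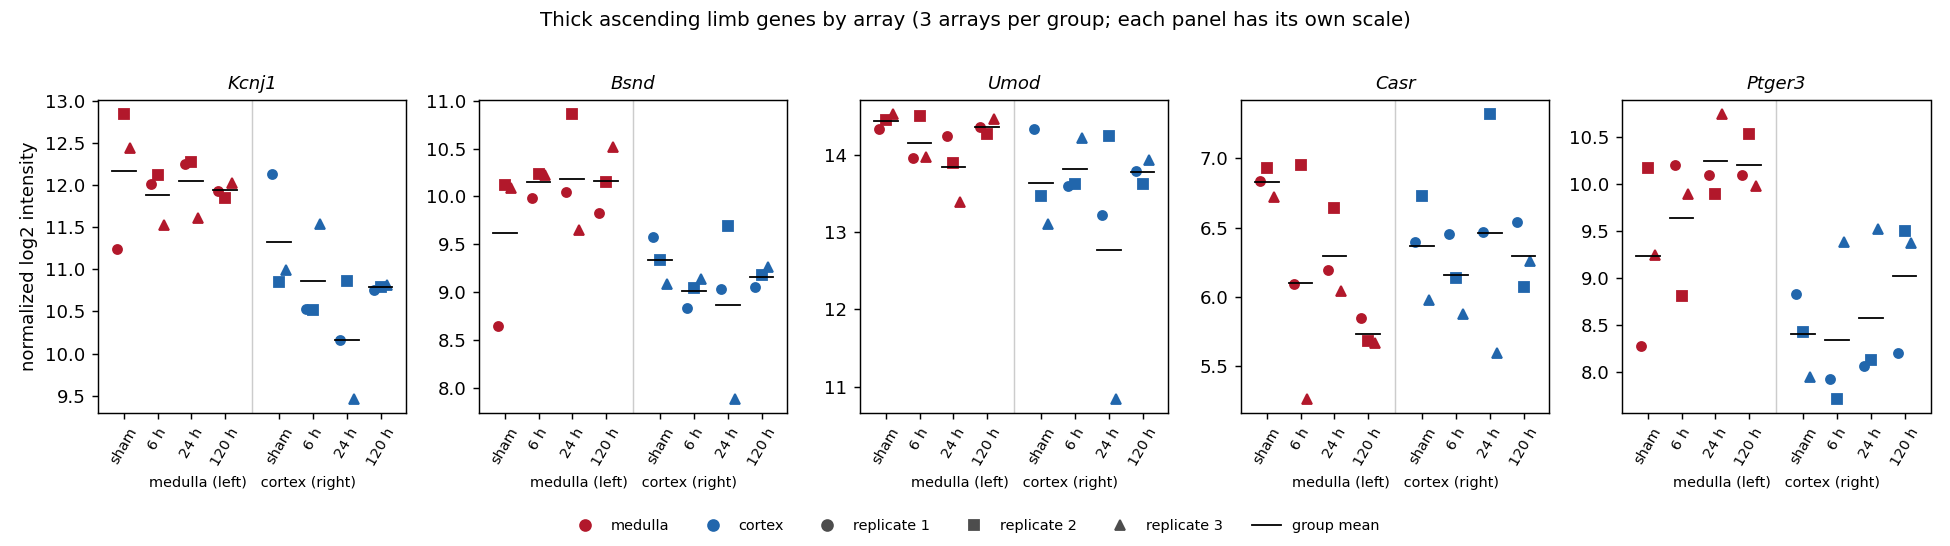
Normalized log2 intensity (vertical axes, each panel with its own scale) of Kcnj1, Bsnd, Umod, Casr and Ptger3 on the 24 arrays, with medulla in red left of cortex in blue, each in the order sham, 6, 24 and 120 h. Marker shapes are replicates and bars are group means of 3 arrays. Kcnj1, Bsnd and Ptger3 sit higher in medulla, and replicate 3 of cortex at 24 h is the lowest array for Kcnj1, Bsnd and Umod.

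In injured medulla against sham medulla none of the 5 measured members was called at any time. At 6 h 0 of 5 genes were called, and 33.8% of all probes were. At 24 h the counts were 0 of 5 genes and 32.7% of probes, and at 120 h they were 0 of 5 genes and 14.6% of probes. With 5 genes these counts are no result about the set. Of the 5 genes, 0, 0 and 1 had an unadjusted p under 0.05 in limma at 6, 24 and 120 h. Their median differences were -0.29, -0.13 and -0.07, against medians over all probes of 0.04, 0.03 and 0.00. The medians of the 5 genes were -0.34, -0.53 and -0.12 without sham medulla replicate 1, when 25.1%, 22.0% and 6.59% of all probes were called.

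The size of change that the medulla arrays allowed was wide. For Kcnj1 the differences from sham were -0.29 ± 0.40 at 6 h, -0.13 ± 0.40 at 24 h and -0.23 ± 0.40 at 120 h, and the 95% interval at 24 h ran from -0.97 to 0.72. Bsnd differed by 0.53, 0.57 and 0.55 (SE 0.39 each) and Ptger3 by 0.40, 1.01 and 0.97 (SE 0.53 each). These positive values rested in large part on sham medulla replicate 1: without it Bsnd differed by 0.05, 0.09 and 0.06, and Ptger3 by -0.08, 0.53 and 0.49. Kcnj1 then differed by -0.75, -0.59 and -0.70 (adjusted p = 0.175, 0.31 and 0.318). Without that array too, 0 of 5 genes were called at each time.

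Casr came closest to the threshold in medulla. Its difference from sham was -1.10 ± 0.37 at 120 h (95% interval -1.87 to -0.33, adjusted p = 0.0501), with all 3 injured arrays below all 3 sham arrays. At 6 and 24 h the differences were -0.73 and -0.54 (adjusted p = 0.136 and 0.287). Without sham medulla replicate 1 the 120 h difference was -1.10 again, with an adjusted p of 0.122, and with the replicate number as a block it passed (adjusted p = 0.0188). Without medulla replicate 2 at 6 h the 6 h difference passed at -1.15 (adjusted p = 0.0202). Casr is also expressed in other nephron segments, the proximal tubule among them. The proximal tubule list moved in the same samples: 14, 15 and 5 of its 16 measured markers fell in medulla at 6, 24 and 120 h, when 33.8%, 32.7% and 14.6% of all probes were called. Its log2 summed level was 15.31 to 16.32, 14.77 to 16.30 and 16.14 to 16.54, against 16.66 to 17.42 in sham medulla. From 11 to 16 of the 16 markers were above background on each medulla array. The part of this shift in the Casr values was not tested. These marker counts were not recomputed without sham medulla replicate 1, which had the highest marker sum of its group. Without that array 25.1%, 22.0% and 6.59% of all probes were called.

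In cortex the only called member was Kcnj1 at 24 h. It fell by 1.16 ± 0.40 (95% interval -2.01 to -0.32, 2.24-fold, adjusted p = 0.0392), to a mean of 10.16 ± 0.70 at 24 h against 11.33 ± 0.70 in sham cortex. One array at 24 h (10.87) reached above the lowest sham array (10.85), so the groups overlapped. At 24 h 1 of 5 genes was called, against 26.2% of all probes. At 6 h 0 of 5 genes and 19.6% of probes were called, and at 120 h 0 of 5 genes and 5.65% of probes. At an unadjusted p under 0.05 in limma the counts of genes were 0 at 6 h, 1 at 24 h and 0 at 120 h. A share of 1 in 5 is no higher than that of all probes.

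The Kcnj1 call depended on single arrays. Without sham cortex replicate 1 the difference was -0.76 (adjusted p = 0.228), without cortex replicate 3 at 24 h it was -0.81 (adjusted p = 0.197), and without cortex replicate 1 at 24 h it was -1.16 (adjusted p = 0.0837). Umod at 24 h differed by -0.87 ± 0.52 (95% interval -1.96 to 0.22, adjusted p = 0.243), and without cortex replicate 2 at 24 h it differed by -1.60 (adjusted p = 0.0211). Bsnd differed by -0.46 ± 0.39 at 24 h, Casr by 0.09 ± 0.37 and Ptger3 by 0.17 ± 0.53, none called. Of 8 measured markers of the next segment, the distal convoluted and connecting tubule, 1 rose and 1 fell at 24 h, near the 26.2% of all probes called. Their log2 summed level was 14.19, 14.47 and 12.60 in cortex at 24 h, against 14.16, 14.27 and 14.47 in sham cortex. The low value was that of replicate 3, the array that was also lowest for Kcnj1, Bsnd and Umod. From 7 to 8 of the 8 were above background on these arrays. Their part in the thick limb values was not tested.

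**Figure D2:**
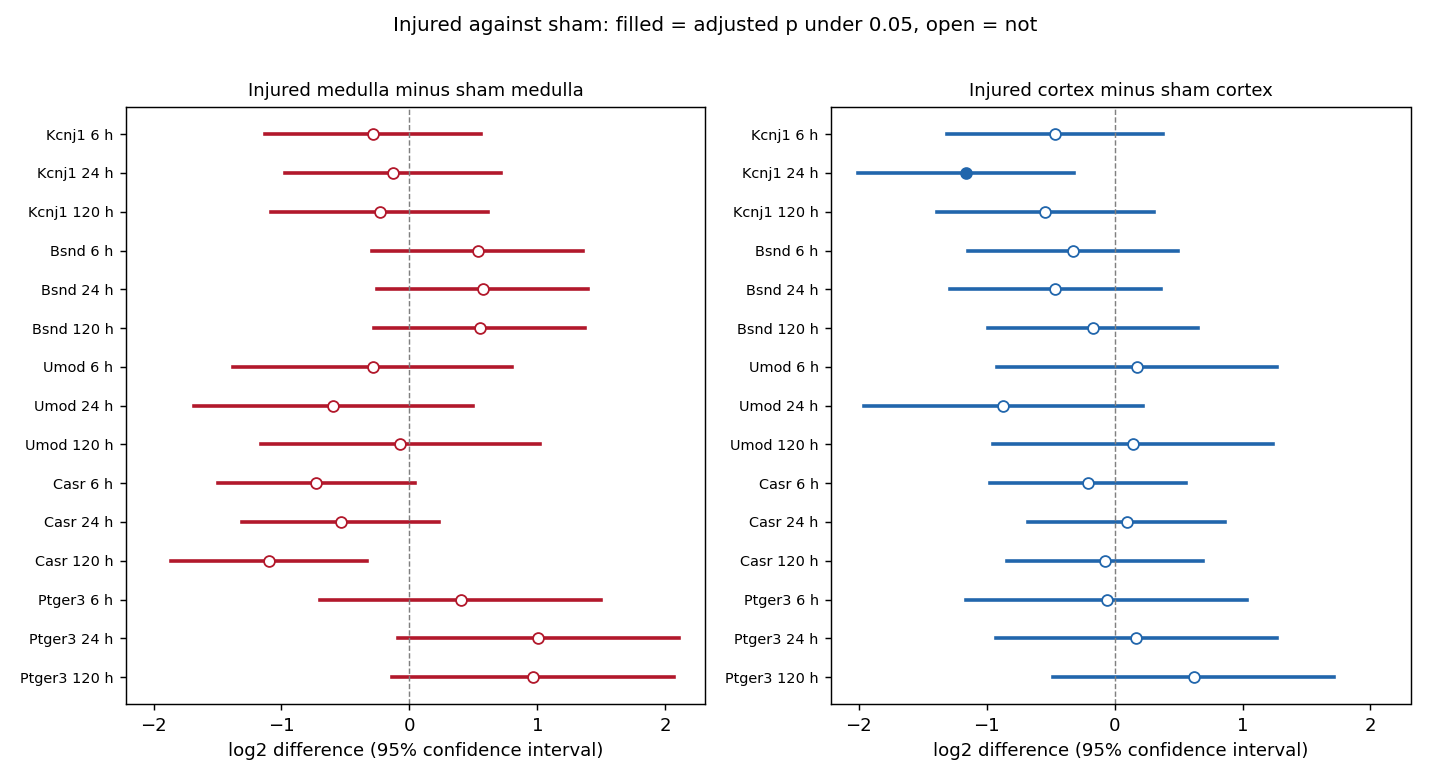
Log2 difference (horizontal axis) of injured minus sham tissue for the 5 genes at 6, 24 and 120 h, with 95% confidence intervals, medulla on the left and cortex on the right. The only filled point, Kcnj1 in cortex at 24 h, has an adjusted p under 0.05, and the interval of Casr in medulla at 120 h also lies below 0.

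The responses of the regions were compared directly with an interaction. No gene was called: 0 of 5 at 6 h, 0 of 5 at 24 h and 0 of 5 at 120 h, with 0 of 5 below an unadjusted p of 0.05 in limma each time. Over all probes 0.202%, 0.0556% and 0.0139% were called at those times. Kcnj1 at 24 h had a medulla response minus cortex response of 1.04 (95% interval -0.16 to 2.23) and Bsnd one of 1.04 (-0.13 to 2.20), so a difference of the responses in either gene was neither shown nor bounded closely. Without sham medulla replicate 1 these values were 0.57 and 0.55, and 0.125%, 0.0695% and 0.0347% of probes were called.

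Medulla held more of 3 of the genes than cortex at 24 h. Kcnj1 was higher in medulla by 1.88 ± 0.40 (3.69-fold, adjusted p = 0.00386), Ptger3 by 1.66 ± 0.53 (3.17-fold, adjusted p = 0.0435) and Bsnd by 1.32 ± 0.39 (2.49-fold, adjusted p = 0.0326). All 3 medulla arrays lay above all 3 cortex arrays for Kcnj1 and Ptger3, while for Bsnd the lowest medulla array (9.65) was just below the highest cortex array (9.69). Umod differed by 1.07 ± 0.52 (adjusted p = 0.217) and Casr by -0.17 ± 0.37 (adjusted p = 0.847). Thus 3 of 5 genes were called at 24 h, against 12.4% of all probes. Kcnj1 was called whichever single array was left out, and the other calls were not. Bsnd differed by 1.40 without cortex replicate 1 (adjusted p = 0.0626), 0.83 without cortex replicate 3 (0.187), 1.39 without medulla replicate 1 (0.0582) and 0.98 without medulla replicate 2 (0.181). Ptger3 differed by 1.41 and 1.44 without cortex replicates 1 and 2 (adjusted p = 0.164 and 0.169) and by 1.74, 1.84 and 1.41 without medulla replicates 1, 2 and 3 (0.0782, 0.0681 and 0.157). Under other settings the Bsnd call ended with only the groups compared (adjusted p = 0.141), and the Ptger3 call ended with an offset of 50 (0.0502) and with median scaling (0.0637). Umod was called at 1.81 when cortex replicate 2 was left out (adjusted p = 0.0179).

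At 6 h 0 of 5 genes and 15.6% of probes were called between medulla and cortex, and 3 of the 5 genes had an unadjusted p under 0.05 in limma. Those differences were 1.14 ± 0.39 for Bsnd (adjusted p = 0.055), 1.03 ± 0.40 for Kcnj1 (adjusted p = 0.0947) and 1.29 ± 0.53 for Ptger3 (adjusted p = 0.108). The same genes were the 3 with an unadjusted p under 0.05 at 120 h, when 0 of 5 genes and 7.48% of probes were called: Kcnj1 differed by 1.15, Bsnd by 1.00 and Ptger3 by 1.18 (adjusted p = 0.0914, 0.136 and 0.201). With the replicate number as a block Bsnd at 6 h passed (adjusted p = 0.0442). Without cortex replicate 3 at 6 h Kcnj1 and Ptger3 passed (1.36 and 1.81, adjusted p = 0.0405 and 0.0324), and without medulla replicate 2 at 6 h Ptger3 passed (1.70, adjusted p = 0.0475).

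In sham tissue all 5 genes had a higher mean in medulla than in cortex, with a median difference of 0.80 against 0.00 over all probes. None of the 5 was called, against 1.39% of all probes, and 1 of 5, Kcnj1, had an unadjusted p under 0.05 in limma. The differences were 0.85 ± 0.40 for Kcnj1, 0.82 ± 0.53 for Ptger3, 0.80 ± 0.52 for Umod, 0.46 ± 0.37 for Casr and 0.28 ± 0.39 for Bsnd. Without sham medulla replicate 1 the differences were 1.31 for Kcnj1 (adjusted p = 0.0605), 1.30 for Ptger3, 0.85 for Umod, 0.46 for Casr and 0.77 for Bsnd, again with 0 of 5 called. The number of probes called over the whole array was 798 without that array and 200 with it.

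Kcnj1, Bsnd and Ptger3 are expressed in other segments as well as the thick limb, the collecting duct among them, and the tissue pieces differed in their segments. At 24 h the log2 summed collecting duct markers were 14.13 to 14.77 in medulla, against 13.89 to 14.55 in cortex. The thin limb markers were 14.81 to 15.60 in medulla, against 13.86 to 14.54 in cortex, and the proximal tubule markers 14.77 to 16.30 in medulla, against 16.69 to 17.21 in cortex. At 24 h 15 or 16 of 16 collecting duct and 5 to 8 of 8 thin limb markers were above background. Their part in the regional differences was not tested.

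**Figure D3:**
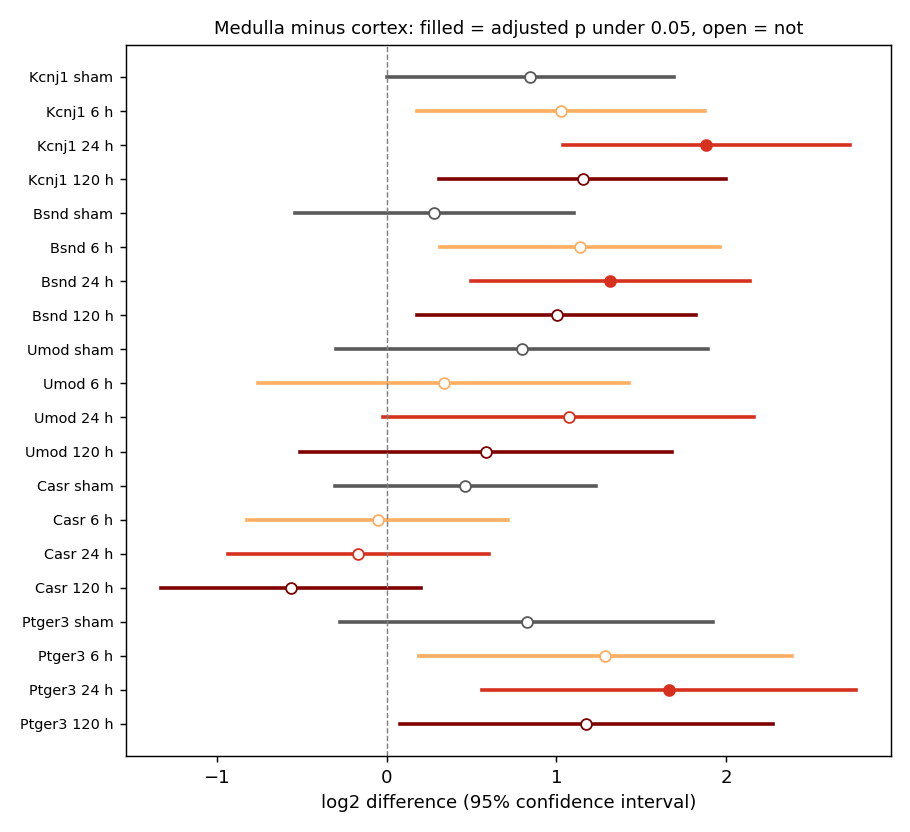
Log2 difference (horizontal axis) of medulla minus cortex for the 5 genes in sham tissue and at 6, 24 and 120 h, with 95% confidence intervals. Filled points, Kcnj1, Bsnd and Ptger3 at 24 h, have an adjusted p under 0.05, and the Casr points run from above 0 in sham tissue to below 0 at 120 h.

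Successive times within a region gave no call either. From 6 to 24 h 0 of 5 genes were called in medulla, with 1.4% of probes, and 0 of 5 in cortex, with 1.5% of probes. From 24 to 120 h 0 of 5 were called in medulla, with 3.91% of probes, and 0 of 5 in cortex, with 2.34% of probes. In all 4 comparisons 0 of 5 genes had an unadjusted p under 0.05 in limma. The widest shifts were in Umod in cortex, at -1.04 ± 0.52 from 6 to 24 h and 1.01 ± 0.52 from 24 to 120 h.

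The other genes of thick limb salt transport moved in both directions. Of 17 listed genes 11 were measured. In medulla 3 rose and 2 fell at 6 h, 2 rose and 2 fell at 24 h and 2 rose and 1 fell at 120 h, while in cortex 1 rose and 1 fell at 6 h, 3 rose and 1 fell at 24 h and 0 were called at 120 h. Of all probes 33.8%, 32.7% and 14.6% were called in medulla and 19.6%, 26.2% and 5.65% in cortex at those times, and with 11 genes the counts are no result about the list. Leaving out sham medulla replicate 1 gave 2 that rose and 2 that fell at 6 h in medulla, 1 and 2 at 24 h and 2 and 0 at 120 h. The median differences were 0.08, 0.15 and 0.01 in medulla and -0.29, -0.20 and 0.03 in cortex, beside medians over all probes that did not exceed 0.04. The medulla medians were -0.14, 0.02 and -0.14 without that array, so the sign turned at 6 and 120 h. Claudins and a chaperone of the cotransporter led the rises, and the basolateral potassium channel subunit Kcnj16 led the falls.

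Cldn16 and Cldn19 form the paracellular pore through which the thick limb reabsorbs magnesium and calcium. In medulla Cldn16 measured 12.12, 11.24 and 11.36 at 6 h, against 9.95, 10.87 and 10.14 in sham tissue, a rise of 1.25 ± 0.33 (adjusted p = 0.0067) with no overlap. In cortex Cldn16 rose by 0.98 and 0.91 at 6 and 24 h (adjusted p = 0.0439 and 0.0474). Leaving out any sham cortex array ended both calls, as did leaving out replicate 1 or 2 of the injured group, with adjusted p up to 0.171 for Cldn16 at 6 h and 0.24 at 24 h. Cldn19 measured 10.65, 9.43 and 11.08 in medulla at 6 h, 9.20, 10.53 and 10.96 at 24 h and 7.32, 8.98 and 9.31 in sham tissue. It rose at both times, by 1.85 ± 0.57 and 1.69 (adjusted p = 0.017 and 0.0287), and without sham medulla replicate 1, the lowest of its group, it differed by 1.24 and 1.08 (adjusted p = 0.121 and 0.189). In cortex Cldn19 rose by 1.56 at 24 h (adjusted p = 0.0494). That call ended without any 1 of the sham cortex arrays or without cortex replicate 2 or 3, with adjusted p up to 0.175. In medulla the Cldn19 calls also ended without replicate 1 or 3 at 6 h and without replicate 2 or 3 at 24 h (adjusted p up to 0.137).

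Kcnj16, a subunit of the basolateral potassium channel that is also found in distal convoluted and proximal tubule, fell in 5 of the 6 comparisons with sham. In medulla Kcnj16 measured 11.18, 10.22 and 10.51 in sham tissue, 9.62, 9.40 and 9.35 at 6 h, 9.35, 9.28 and 9.29 at 24 h and 9.59, 9.83 and 9.29 at 120 h. It fell at every time, with differences of -1.18, -1.33 and -1.07 (adjusted p = 0.00205, 0.000907 and 0.0112), and the arrays did not overlap those of sham. Without sham medulla replicate 1 the 120 h difference was -0.80 (adjusted p = 0.0753), and without medulla replicate 3 at 120 h it was -0.93 (adjusted p = 0.0563). In cortex Kcnj16 fell too, with differences of -0.77 and -1.15 at 6 and 24 h (adjusted p = 0.0445 and 0.003). The 6 h cortex call of Kcnj16 ended without any 1 of the sham cortex arrays or without cortex replicate 1 or 2 (adjusted p up to 0.251). The proximal tubule markers given above fell in the same medulla samples. So did 4, 5 and 5 of 8 distal convoluted and connecting tubule markers at 6, 24 and 120 h, against 33.8%, 32.7% and 14.6% of all probes called. The log2 sum of those 8 was 9.64 to 10.38, 8.94 to 9.88 and 9.73 to 10.81, against 10.65 to 13.06 in sham medulla, with 5 to 7 of 8 above background. The part of either segment in the Kcnj16 values was not tested, and neither marker list was recomputed without sham medulla replicate 1.

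Maged2, a chaperone-like protein whose human form is needed for surface expression of the salt cotransporters around birth, rose at 6, 24 and 120 h in medulla (0.78, 1.37 and 0.80) and at 24 h in cortex (0.78, adjusted p = 0.00432, 6.37e-05, 0.0104 and 0.00558). Its 9 injured medulla arrays (7.11 to 8.36) lay above all 3 sham arrays (6.41 to 6.90), and the 120 h call ended without medulla replicate 3 (0.66, adjusted p = 0.0594). Kcnt1, a sodium-activated potassium channel, fell in medulla, with differences of -0.99 and -0.90 at 6 and 24 h (adjusted p = 0.0171 and 0.0305), and Slc4a2, an anion exchanger, rose by 0.60 at 120 h (adjusted p = 0.0312). Both Kcnt1 calls ended without sham medulla replicate 2 or 3, the 6 h call also without medulla replicate 1 and the 24 h call without medulla replicate 2 or 3 (adjusted p up to 0.157). The Slc4a2 call ended without sham medulla replicate 2 or 3 or medulla replicate 1 or 2 at 120 h (adjusted p up to 0.108). Cldn10, the thick limb's sodium-selective claudin, was higher in medulla than in cortex at all 3 times after injury, by 1.66, 1.60 and 1.05 (adjusted p = 8.54e-05, 0.000161 and 0.00809), as were Cldn16 by 1.52 and Cldn19 by 2.81 at 6 h (adjusted p = 0.00356 and 0.0021). Slc9a3, the sodium/hydrogen exchanger NHE3 of thick limb and proximal tubule, was higher in medulla at 24 h by 1.21 (adjusted p = 0.0401), a call that ended without cortex replicate 2 or 3 or medulla replicate 1 or 2 (adjusted p up to 0.203). The 120 h difference of Cldn10 missed the threshold without cortex replicate 1 or 3 (adjusted p up to 0.0529 with 1 array left out). Kcnt1 was at least 1.94-fold higher in medulla than in cortex at 6 h (adjusted p = 0.0101), where no cortex array was above background. Of the 11 genes 4, 3 and 2 were higher in medulla at 6, 24 and 120 h and 1, 1 and 1 were lower. Over all probes 15.6%, 12.4% and 7.48% were called. The gene lower in medulla at 6 h was Kcnj16, a call kept under every other setting.

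Kinases and hormone receptors of the thick limb, 14 of 16 measured, mostly fell where they were called. In medulla 0 rose and 6, 5 and 3 fell at 6, 24 and 120 h, against 33.8%, 32.7% and 14.6% of all probes, and without sham medulla replicate 1 the counts that fell were 6, 5 and 0. In cortex 1 rose and 4 fell at 6 h, 0 rose and 4 fell at 24 h and 0 were called at 120 h, against 19.6%, 26.2% and 5.65% of all probes. The counts at 24 h in particular lay near those shares, and with 14 genes no count is read as a result about the list. The median differences were -0.32, -0.41 and -0.15 in medulla (-0.26, -0.35 and -0.33 without sham medulla replicate 1) and -0.51, -0.68 and -0.41 in cortex.

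Several of the genes that fell are also made elsewhere in the kidney. Pth1r, the parathyroid hormone receptor, and Cyp4a2, an arachidonic acid hydroxylase, are abundant in proximal tubule, whose markers fell in the same medulla samples. In medulla at 6, 24 and 120 h Pth1r fell, with differences of -2.54, -2.39 and -1.32 (adjusted p of 0.0297 or less), and so did Cyp4a2, with -2.46, -3.15 and -1.93 (0.0491 or less). Gcgr, the glucagon receptor, fell there too, with -1.81 and -1.53 at 6 and 24 h (adjusted p = 0.018 and 0.0422). Without sham medulla replicate 1 the 120 h differences were -1.06 for Pth1r (adjusted p = 0.141) and -1.71 for Cyp4a2 (0.165). Those 120 h calls ended too without sham medulla replicate 3 or medulla replicate 2 or 3, and that of Cyp4a2 without sham medulla replicate 2 (adjusted p up to 0.113 for Pth1r and 0.242 for Cyp4a2 among these). The Gcgr calls ended without sham medulla replicate 2 or medulla replicate 3 of the same time, and at 24 h also without sham medulla replicate 3 or medulla replicate 1 (adjusted p up to 0.197). Gcgr had 3 kept probes, and the values above are those of the brightest. The second probe was called in medulla at 6, 24 and 120 h (-2.03, -1.95 and -1.85, adjusted p = 0.000445, 0.000612 and 0.00339) and in cortex at 6 and 24 h (-1.13 and -1.28, adjusted p = 0.0355 and 0.0138), and the third was called in medulla at 6 h (-1.50, adjusted p = 0.0349). All 3 Gcgr probes had negative differences in all 6 comparisons with sham. The proximal tubule share of these falls was not tested.

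Wnk1 and Oxsr1 belong to the kinase chain that phosphorylates the cotransporter. The brighter of 2 Wnk1 probes fell in medulla at 6, 24 and 120 h, with differences of -1.65, -1.69 and -1.07, and in cortex at 6 and 24 h, with -1.63 and -2.09 (adjusted p of 0.0484 or less). Without sham medulla replicate 1 the value at 120 h in medulla was -0.64 (adjusted p = 0.277), and it also missed the threshold without sham medulla replicate 3 and without medulla replicate 1 or 3 (adjusted p up to 0.171). The other Wnk1 probe was not called in any of the 6 comparisons with sham (differences of -0.13 to 0.19), so the probes disagreed. Oxsr1 measured 5.31, 5.94 and 7.26 in cortex at 6 h and 6.30, 5.63 and 6.65 at 24 h, against 8.03, 7.37 and 7.59 in sham cortex, so that it fell at both times, with differences of -1.50 and -1.47 (adjusted p = 0.00921 and 0.00719). Its 6 h call ended without sham cortex replicate 1 or cortex replicate 1 or 2 (adjusted p up to 0.0617). Its relative Stk39, the kinase SPAK, was not called against sham and was higher in medulla than in cortex by 1.50 and 1.75 at 6 and 24 h (adjusted p = 0.0106 and 0.00428). The vasopressin receptor Avpr2 was likewise higher in medulla by 1.92, 1.83 and 1.80 at 6, 24 and 120 h (adjusted p = 0.0162, 0.0261 and 0.0404). Its calls ended without cortex replicate 1 at 6 h (adjusted p = 0.0542), without cortex replicate 1 or 3 or medulla replicate 2 at 24 h (up to 0.145) and without any 1 of the 6 arrays at 120 h (up to 0.135).

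Adcy6, an adenylyl cyclase that makes the second messenger of vasopressin and other hormones, measured 5.14, 5.26 and 5.33 in medulla at 6 h, against 6.36, 5.90 and 6.27 in sham medulla. It fell there by 0.94 (adjusted p = 0.00292), with no overlap, and the call held under all 17 other settings. In cortex Adcy6 fell by 0.80 at 6 h (adjusted p = 0.015), a call that ended without sham cortex replicate 1 or 2 or cortex replicate 2 (adjusted p up to 0.089). At 24 h it measured 4.78, 4.80 and 4.65 in cortex, against 5.90, 6.00 and 5.44 in sham cortex. No array of cortex at 24 h was above background for it, so its level there has only an upper bound and sham cortex was at least 1.82-fold higher (adjusted p = 0.00179, called under all 17 other settings). For such bounds the dim group is set, on each array, at the higher of the probe's own value and the lowest value among probes above background. At 24 h Adcy6 was at least 1.66-fold higher in medulla than in cortex (adjusted p = 0.00926), which missed the threshold without medulla replicate 2 (adjusted p = 0.0633).

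Calcr, the calcitonin receptor, was above background on 3 of 3 arrays in both sham groups and on 0 of 3 in medulla at 6 and 24 h. Sham medulla was at least 1.33-fold and 1.42-fold higher than medulla at 6 and 24 h (adjusted p = 0.00692 and 0.00759). Cortex at 24 h also had 0 of 3 Calcr arrays above background, and sham cortex was at least 1.38-fold higher (adjusted p = 0.00571), with a difference of -0.77 that was -0.45 without sham cortex replicate 1. Calcr fell by 0.66 in cortex at 6 h (adjusted p = 0.02), and that call ended without sham cortex replicate 1 or cortex replicate 1 or 2 (adjusted p up to 0.128). Ppp3ca, the catalytic subunit of the phosphatase calcineurin, rose by 0.51 in cortex at 6 h (adjusted p = 0.0488), and every array left out ended the call except sham cortex replicate 1 (adjusted p up to 0.176). Wnk4, another kinase of the chain, was higher in medulla than in cortex at 24 h by 0.79 (adjusted p = 0.0236), but not without cortex replicate 3 or medulla replicate 1 or 2 (adjusted p up to 0.121).

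Secreted proteins and transcription factors of the segment, 8 of 14 measured, fell wherever they were called against sham. In medulla 2 fell at 6 h, 2 at 24 h and 0 at 120 h, and in cortex 1, 2 and 0 fell. With 33.8%, 32.7% and 14.6% of all probes called in medulla and 19.6%, 26.2% and 5.65% in cortex, these counts of 8 were near or below the background and are no result about the list. The medulla counts were 1, 3 and 0 without sham medulla replicate 1. The median differences were -0.27, -0.34 and -0.15 in medulla (-0.44, -0.57 and -0.42 without that array) and -0.25, -0.39 and -0.01 in cortex. Esrrg, a nuclear receptor that drives genes of energy metabolism, measured 6.29, 5.47 and 5.39 in medulla at 6 h and 6.74, 6.04 and 6.30 at 24 h, against 7.37, 8.07 and 7.77 in sham medulla. It fell at both times there, with differences of -2.02 and -1.38 (SE 0.39, adjusted p = 0.000763 and 0.0113), and also in cortex, with -1.85 and -1.84 at 6 and 24 h (adjusted p = 0.00291 and 0.00186). On all 6 of those medulla arrays Esrrg was below every sham medulla array, and the 24 h medulla call ended without medulla replicate 2 (-1.22, adjusted p = 0.0531).

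Egf, the growth factor precursor made in thick limb and distal convoluted tubule, had its lowest arrays where Umod did. It measured 12.65, 13.18 and 9.43 in cortex at 24 h, against 14.38, 14.00 and 13.42 in sham cortex, a difference of -2.18 ± 0.67 (adjusted p = 0.0216) with no overlap, and without cortex replicate 3 at 24 h it was -1.02 (adjusted p = 0.146). Without sham cortex replicate 1 or 2 the Egf difference was -1.96 or -2.15 (adjusted p = 0.0861 and 0.0525). Replicate 3 at 24 h was the lowest of its group in both regions, for Egf (9.43 in cortex and 11.21 in medulla) and for Umod (10.85 and 13.38). In medulla Irx3, a homeobox factor, fell at 6 and 24 h, with differences of -0.73 and -1.28 (adjusted p = 0.0305 and 0.000895), and was higher at 120 h than at 24 h by 0.90 (adjusted p = 0.049). The 6 h call of Irx3 ended without sham medulla replicate 1 or 3 or medulla replicate 1 or 3 (adjusted p up to 0.135), and the difference between 120 and 24 h missed the threshold without 5 of the 6 arrays, all but medulla replicate 1 at 24 h (up to 0.237). Irx1, its relative, was higher in medulla than in cortex in sham tissue and at 6, 24 and 120 h, by 1.73, 2.08, 1.84 and 1.67 (adjusted p = 0.00129, 2.26e-05, 5.68e-05 and 0.000399). These are values of the brighter of 2 Irx1 probes. The other differed by -0.04, 0.07, 0.02 and -0.21 in the same comparisons and was not called, so the probes disagreed. The brighter Irx1 probe was also higher at 120 h than at 24 h, by 0.91 in medulla and 1.09 in cortex (adjusted p = 0.0345 and 0.017). In medulla that call ended without any 1 of the 6 arrays except replicate 1 at 24 h (adjusted p up to 0.202), and in cortex without any except replicate 2 at 24 h and replicate 1 at 120 h (up to 0.0892).

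Other transcription factors of the list were called between the regions and not against sham. Sim2 was above background on 3 of 3 arrays in every medulla group and on 0 of 3 in sham cortex and in cortex at 24 h. It was higher in medulla than in cortex by 1.22 at 120 h (adjusted p = 0.00714), a call that held under all 16 other settings, and by 0.97 at 6 h (adjusted p = 0.0149). Sim2 was at least 1.45-fold higher in medulla than in cortex at 24 h (adjusted p = 0.0293) and at least 1.82-fold higher in sham medulla than in sham cortex (adjusted p = 0.049). The 6 h call of Sim2 ended without cortex replicate 2 or medulla replicate 1 (adjusted p up to 0.0765). Its 24 h call ended without any 1 of the 6 arrays but medulla replicate 2 (up to 0.144), and its sham call without any 1 of them but sham medulla replicate 1 (up to 0.297). Tfap2b was higher in medulla by 1.58 at both 6 and 24 h (adjusted p = 0.0241 and 0.0296), and Pou3f3 by 0.72 at 24 h (adjusted p = 0.0335). The Tfap2b calls ended without replicate 1 or 3 of either region at 6 h (adjusted p up to 0.081) and without cortex replicate 1 or 3 or medulla replicate 2 or 3 at 24 h (up to 0.124). The Pou3f3 call ended without any 1 of the arrays but cortex replicate 2 (up to 0.145).

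**Figure D4:**
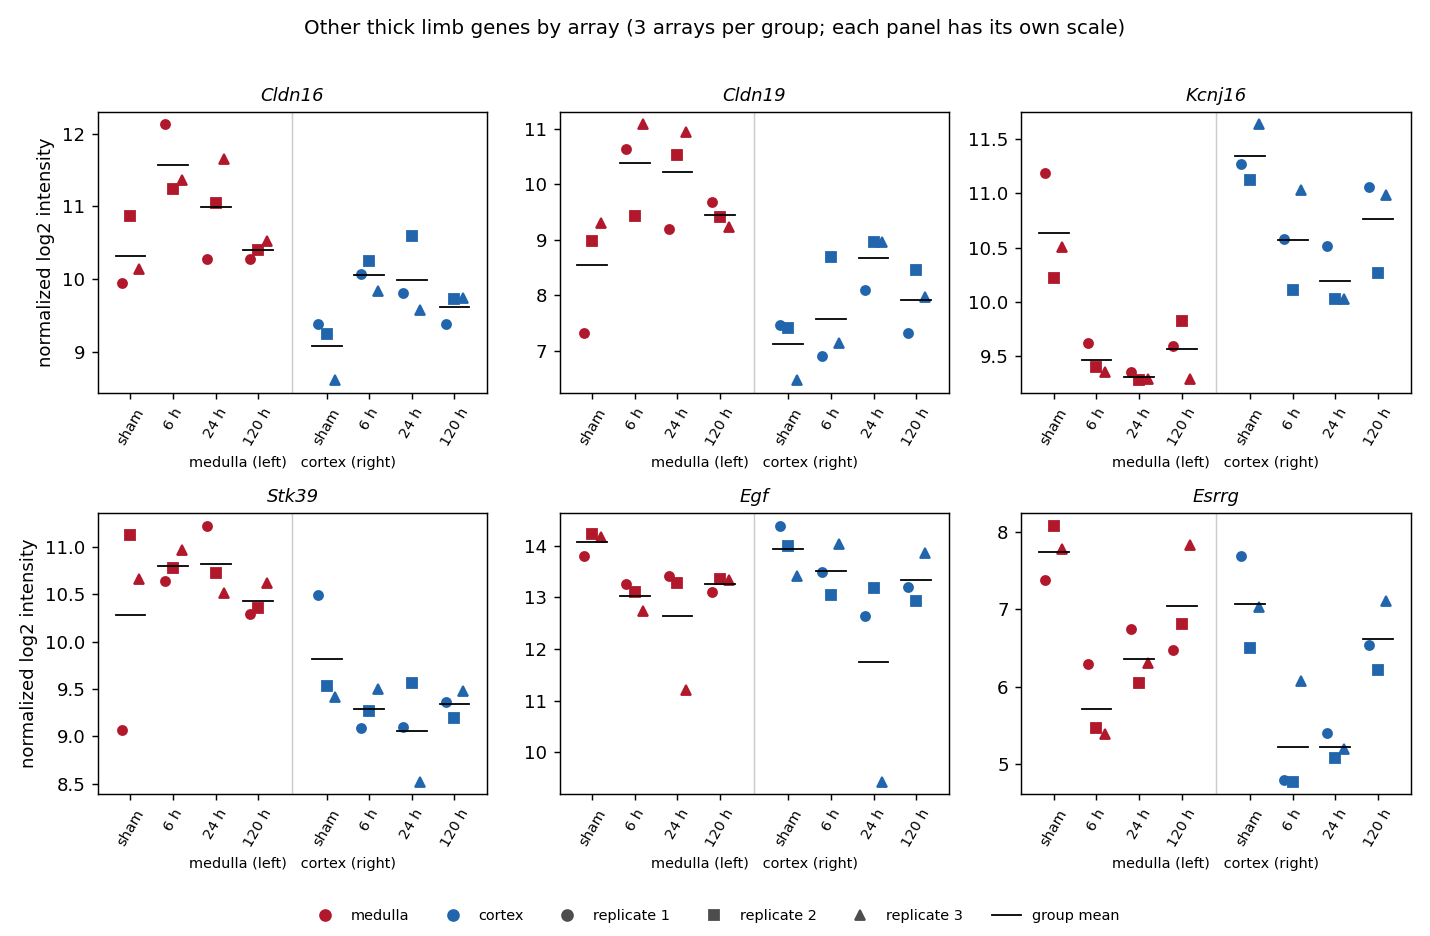
Normalized log2 intensity (vertical axes, each panel with its own scale) of Cldn16, Cldn19, Kcnj16, Stk39, Egf and Esrrg on the 24 arrays, with medulla in red left of cortex in blue, each in the order sham, 6, 24 and 120 h. Marker shapes are replicates and bars are means of 3 arrays. The Kcnj16 and Esrrg means at 6 and 24 h lie below sham in both regions, the Cldn16 means lie above sham, and sham medulla replicate 1 is low for Cldn19 and Stk39.

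Across the 12 cortex arrays the pairs among Umod, Kcnj1 and Bsnd had positive correlations. Umod and Bsnd had a Pearson r of 0.909 (adjusted permutation p = 0.0177) and a Spearman rho of 0.687 (adjusted permutation p = 0.161), and r was 0.526 without the 2 arrays farthest from the median of Bsnd. Umod and Kcnj1 had an r of 0.794 (adjusted permutation p = 0.0177), a rho of 0.606 (adjusted permutation p = 0.268) and an r of 0.531 without the 2 farthest arrays. Both relations thus rested in part on single arrays. Bsnd and Kcnj1 gave 0.764 for r and 0.790 for rho (adjusted permutation p = 0.0616 and 0.0672), and r was 0.745 without the 2 farthest. Ptger3 had an r of -0.238 with Bsnd, 0.0571 with Kcnj1 and -0.210 with Umod over the 12 arrays (adjusted permutation p = 0.657, 0.909 and 0.682, rho 0.210, 0.140 and 0.133 with adjusted permutation p = 0.734, 0.798 and 0.798). Without the 2 arrays farthest from the median of Bsnd, Kcnj1 and Ptger3 in turn, those r were 0.506, 0.538 and 0.594, near those of the Umod pairs. The contrast of Ptger3 with the other genes thus rested on a few arrays, and the arrays left out differed between the pairs. In medulla none of the 10 pairs passed. In all 20 relations were computed over both regions, from 12 arrays each, which hold 4 times or treatments and share normalization. Arrays were permuted freely across those groups, so the permutation p-values mix group differences with the scatter of arrays.

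The genes whose pattern over the 24 arrays was most like each member were found by Pearson r, which these arrays share through region and time. For Kcnj1 they were Mfsd4a (0.964), Itm2b (0.912), Stk39 (0.910), Spire1 (0.908) and Fam149b1 (0.907). For Bsnd they were Avpr2 (0.897), Stk39 (0.896), Ndrg2 (0.889), Galnt18 (0.885) and Mfsd4a (0.875). Stk39 and Mfsd4a thus stood in both lists, and Mfsd4a also in that of Umod.

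Umod was most like Egf (0.808), followed by Cds1 (0.774), Pccb (0.756), Caln1 (0.747) and Mfsd4a (0.740). Ptger3 was most like Tmem165 (0.904), Srd5a3 (0.880), Syt8 (0.879), Magi3 (0.877) and Nampt (0.876). Casr, the dim probe, had its highest values with Abca4 (0.817), Sdr39u1 (0.742), Sdhd (0.738), Oard1 (0.735) and Inpp5j (0.734). The leading gene of 4 of the 5 lists stayed the first without sham medulla replicate 1, while Avpr2 became the fifth for Bsnd.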

How the data were processed

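RNA of 24 samples was hybridised to Illumina arrays, and the authors deposited 1 raw intensity per probe and array, not normalized, per the file headers. The deposited detection column is a fraction that rises with intensity, and 1 minus that fraction served as the detection p. The deposited series table holds log2 values, with a normalization not stated in any label or header read here, and served as an alternative.

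Intensities were normalized with neqc of limma 3.58.1 in R 4.3.3 (normexp background, offset 16, quantile, log2). The filter asked for detection (p under 0.05) in 3 or more arrays and left 14390 of 22523 probes. The annotation gave 1 symbol for 13793 probes and none for 8730. All arrays entered a single model of 8 group means (lmFit, eBayes, 16 residual and 3.34 prior degrees of freedom), with 17 comparisons, Benjamini-Hochberg adjustment over all kept probes within a comparison and a threshold of 0.05. With 3 arrays a side the smallest exact p is 0.1, so no such test was used. The fit was run on simulated data with independent normal noise on every array. Such data hold no outlying arrays, so that run does not bear on calls that depend on single arrays. Permutation tests used 100000 resamples. Precision is limited by the number of arrays.

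The members and lists were chosen with earlier results of these data known. All members were named, at most 4 called genes per other list, direction and comparison, and the 5 most alike genes by r. Between the regions not every called gene of the lists was named. Where a gene had several kept probes, the brightest on average counted. Against a group with 0 arrays above background a fold is a lower bound.

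Replicate numbers are shared by the groups. Same-numbered medulla and cortex arrays correlated in their deviations from group means in 3 of 12 pairs (r over 0.1), which were the 3 pairs of 24 h. Within a region 12 of 36 same-numbered pairs of different times passed the same cutoff, so the cutoff cannot show pairing. With a random block the correlation over all times was 0.034. Whether the numbers pair the regions at 24 h is not known, and the reported fit used no pairing.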

Additional observations from a re-analysis of the deposited data

How the results depend on the processing

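Every member count was recomputed under 36 other fits, of which 24 left out 1 array. Of 85 member differences 4 were called, and 72 kept their call, or its absence, throughout; 31 uncalled differences changed sign somewhere without being called. In cortex at 24 h against sham the count was 0 and not 1 with median scaling, with no filter, with only the groups compared and with only the arrays of the region, and 0 to 2 when 1 array was left out. In medulla against sham it was 1 and not 0 at 120 h (Casr) with a strict filter, with only the groups compared, with trend and robust eBayes and with either replicate block (fixed or random), and 0 to 1 at 6 h when 1 array was left out. Between medulla and cortex it was 1 and not 0 at 6 h (Bsnd) with median scaling, a strict filter, only the groups compared, trend and robust eBayes and either replicate block, and 0 to 2 when 1 array was left out. At 24 h it was 1 and not 3 with no filter (Kcnj1), 2 with an offset of 50 and with median scaling (Ptger3 lost) and with only the groups compared (Bsnd lost), and 1 to 3 when 1 array was left out. At 120 h it was 3 and not 0 with only the groups compared (Umod, Kcnj1 and Bsnd). The cause of these moves was not tested.

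The replicate block changed no other member call. At 24 h the fixed block was also fitted to only the 6 arrays of that time, a fit chosen after seeing the data, and the count stayed at 3. Over all times 3 of 12 same-numbered pairs across regions correlated over 0.1 (-0.26 to 0.40) and 12 of 36 within a region did. Counts over all probes moved too, for example 0 to 798, with 200 in the reported fit, between the sham regions and 805 to 3950, with 2826, in cortex at 6 h. The other thick limb lists were rerun under the same alternatives after seeing the data: of 90 called differences 37 stayed called throughout and 0 changed sign. Casr lies near background, and Umod near the top of the scale, which limits what either probe could show.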
